A study of Mus musculus with 16 samples.

Results

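Peak calling of H3K36me3 in mouse haematopoietic stem cells gave 2189 regions called young-only here. They had a peak in young replicates 5 and 6 and in none of the 3 old libraries. Young replicate 4 took no part in choosing them. The peaks of 5 H3K36me3 libraries (3 old, 2 young) were merged wherever they overlapped by 1 bp or touched, which gave 77590 merged regions. A region was young-only when peaks of young replicates 5 and 6 both touched it and no peak of old replicates 4, 5 or 6 did. The young-only regions made up 2.82% of the merged regions and 2.65 Mb of sequence. The regions were selected on the presence or absence of these H3K36me3 peaks, so their H3K36me3 values in those 5 libraries are a description, with no test. The reverse class, held by all 3 old libraries and neither young one (old-only), had 389 regions (0.501%). Old-only regions needed peaks in 3 libraries and young-only regions in 2, so the 2 counts are not like for like.

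The cells were bone marrow haematopoietic stem cells of C57BL/6 mice aged 24 months (old) or 4 months (young). The sort gate was SP-KSL-CD150+, dye-excluding cells that carry Kit, Sca1 and CD150 and lack lineage antigens, which enriches long-term stem cells. No genotype or treatment was labelled beyond wild type. Chromatin was sonicated and immunoprecipitated with antibodies to 3 histone marks, with 3 old and 3 young H3K36me3 libraries, 2 old and 2 young H3K4me3 libraries, and 3 old and 3 young H3K27me3 libraries. In the labels each library stands as a technical replicate under a biological replicate number, without saying which animals it came from, so the p-values below measure the spread between these libraries, which may be technical. The titles also carry numbers whose meaning is not stated. Defining genes of the cell type were not checked, because no gene annotation of the files' build (mm9) was used here, and regions are named by position.

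H3K36me3 is laid down by SETD2, an enzyme that travels with elongating RNA polymerase II, so the mark covers the bodies of transcribed genes and is strongest away from the promoter. H3K4me3 marks promoters of active or poised genes. H3K27me3, laid down by the Polycomb repressive complex that holds EZH2, covers silent developmental genes. Haematopoietic stem cells replenish all blood lineages, and with age their pool is known to grow in mice while its output shifts toward myeloid cells. These are bulk libraries, so a mark carried by fewer cells and a weaker mark in each cell cannot be told apart.

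The H3K36me3 lists differed widely in size. The old lists held 39362, 50505 and 64769 peaks, covering 68.5, 100.06 and 100.4 Mb in replicates 4, 5 and 6. Young replicate 5 held 84437 peaks of median width 354 bp, covering 41.6 Mb, and young replicate 6 held 78586 peaks of median width 1199 bp, covering 138 Mb. Both young lists therefore had more peaks than any old list, but one was narrow and the other broad. Young replicate 4, which took no part in choosing the regions, stood apart with 6399 peaks over 5.90 Mb. The sequencing depth behind these lists is unknown, and its part in the counts was not tested.

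Most young-only regions were short. Their median length was 1082 bp, against 4632 bp for the 16247 regions held by all 5 libraries and 1264 bp for all merged regions, and their 10th and 90th percentiles were 691 and 1838 bp. Old-only regions had a median of 1604 bp. Within a young-only region, young replicate 6 covered a median of 1033 bp and usually the whole region (median 100%), whereas young replicate 5 covered a median of 344 bp (33.75% of the region). The 2 young lists thus shared a place rather than an outline.

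They ranked low within their own lists, as did old-only regions and regions held by 1 young library. The authors' scores, used here only to rank peaks inside a list, had medians of 125 in young replicate 5 and 157 in young replicate 6 over the young-only regions. This placed the median young-only region at percentile 36.9 of young replicate 5 and percentile 37.4 of young replicate 6. Regions held by all 5 libraries lay at percentiles 79.2 and 85.9 of the same lists, and all the merged regions that each list held at 57.2 and 50.5. Regions held by 1 young and no old library lay lower, at 29.7 in young replicate 5 and 22.1 in young replicate 6, and old-only regions lay at 35.1 to 37.8 in the 3 old lists. Of the 2189 young-only regions, 1073 (49.0%) ranked below the median in both young lists and 267 (12.2%) at or above it in both. Only 16 reached the 75th percentile in both lists, and 1 reached the 90th. The ranks of a region in the 2 young lists were loosely related (Spearman's rho 0.129 and Pearson's r 0.146 across 2189 regions of the same 2 libraries).

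Regions that just missed the choice were longer or shorter according to the side on which they missed it. The 3570 regions held by both young libraries and exactly 1 old library had a median length of 1729.5 bp and median percentiles of 43.3 in young replicate 5 and 53.9 in young replicate 6. The old library that held them was replicate 6 in 2323 cases (65.1%), replicate 5 in 891 and replicate 4 in 356, which is the order of the old lists by peak number. On the other side, 21851 regions were held by 1 young library and no old one, 17072 of them by young replicate 6 and 4779 by young replicate 5, with a median length of 692 bp.

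The number of young-only regions moved with the lists that entered. It was 3378 without old replicate 5, 5100 without old replicate 6, 19416 without young replicate 5 and 9158 without young replicate 6. Leaving out old replicate 4, 5 or 6 put 2 libraries on each side. Old-only regions then numbered 1427, 914 and 893, against 2634, 3378 and 5100 young-only ones. With equal numbers of peaks from each list (the 39362 of highest score), 574 regions were young-only and 1019 old-only, so the excess of young-only over old-only regions turned round, and 236 of the 2189 regions (10.8%) were still represented among the 574.

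Young-only regions lay close to H3K36me3 peaks of old cells. The median distance to the nearest peak of any old library was 1233 bp, with quartiles of 413 and 3858 bp and a range of 2 to 930071 bp. A peak of an old library lay within 1 kb of 971 regions (44.4%), within 5 kb of 1737 (79.4%) and within 20 kb of 2059 (94.1%). Such peaks stood on both sides within 5 kb at 898 regions (41.0%). Taken singly, old replicate 4 had a peak within 5 kb of 50.1% of the regions, old replicate 5 of 65.4% and old replicate 6 of 72.5%. The 5 kb share for any old library moved with the processing. It was 56.9% with peaks up to 1000 bp apart merged and 66.2% with only peaks scoring at least their list's median. With equal peak numbers it was 72.3%, and with young replicate 4 included 88.9%. Nearness to peaks of the other age was shared by the other classes, since 76.1% of old-only regions had a peak of young replicate 5 or 6 within 5 kb, as did 74.8% of the regions held by 1 young and no old library for peaks of the old libraries.

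**Figure D1:**
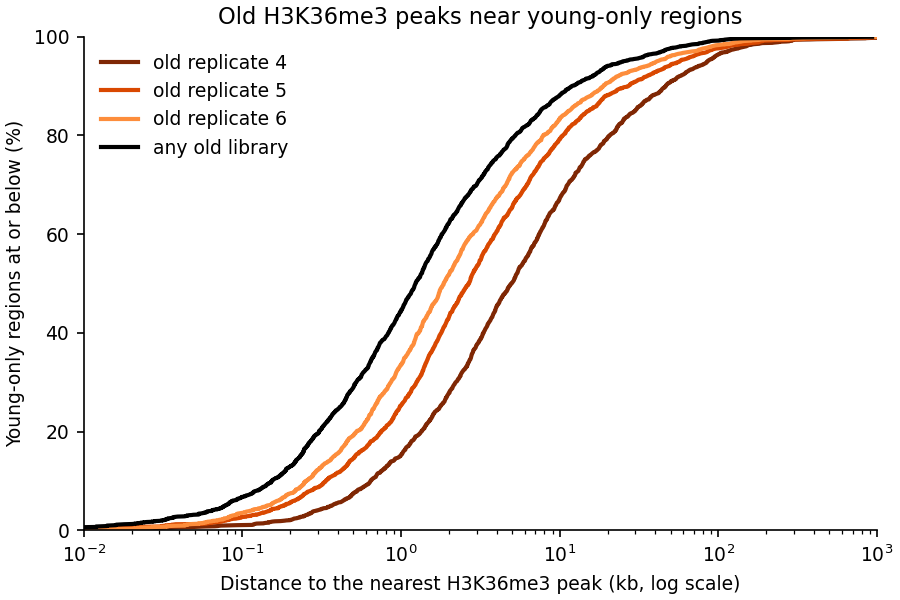
Cumulative share of the 2189 young-only regions (vertical axis, percent) by distance to the nearest H3K36me3 peak (horizontal axis, kb, log scale), for each old library and for any old library. At 5 kb the curves stand at 50.1%, 65.4% and 72.5% for old replicates 4, 5 and 6 and at 79.4% for any of them.

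Averaged over all 2189 regions, the gap that the choice of regions leaves in the old lists was narrow. At 1 kb from the centre of the regions, 3.45%, 6.44% and 8.11% of positions were under a peak in old replicates 4, 5 and 6, and at 5 kb 13.1%, 20.2% and 20.7% were. At 50 kb these shares were 7.86%, 12.0% and 12.5%, lower than at 5 kb in all 3 old libraries. Young replicate 6 had the same shape outside the regions, with 23.4% at 1 kb, 29.9% at 5 kb and 16.9% at 50 kb, and young replicate 5 had 4.87%, 8.31% and 5.44%. At 5 kb and at 50 kb the 5 lists stood in the order of their covered length; at 1 kb old replicate 4 lay below young replicate 5. These are averages, and 452 of the regions (20.6%) had no old peak within 5 kb.

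**Figure D2:**
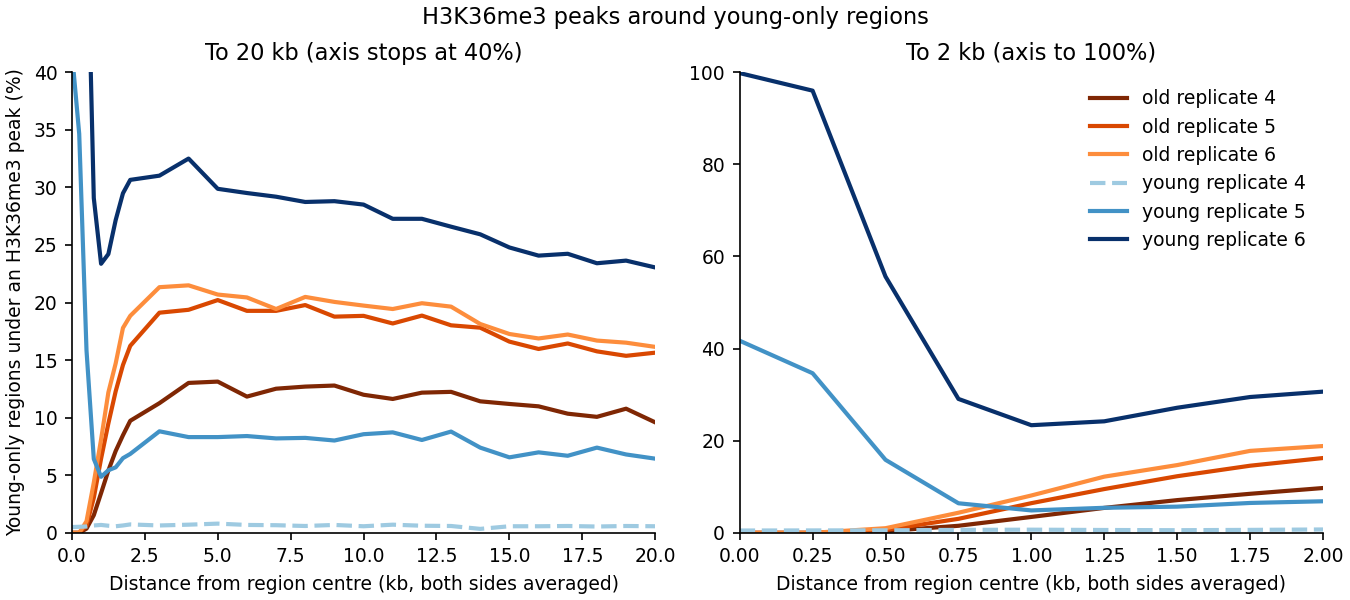
Share of the 2189 young-only regions under an H3K36me3 peak (vertical axis, percent) by distance from the region's centre (horizontal axis, kb, both sides averaged), with the old libraries in orange tones and the young in blue tones; the left panel stops at 40%, the right panel shows the first 2 kb up to 100%. Old replicates 4, 5 and 6 start at 0 by the choice of regions and reach 13.1%, 20.2% and 20.7% at 5 kb, while young replicate 6 passes through 23.4% at 1 kb and 29.9% at 5 kb.

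Young replicate 4 gave the one look at H3K36me3 that the choice of regions did not use. It held 32 of the 2189 young-only regions (1.46%, 95% Wilson interval 1.04% to 2.06%, which covers counting of regions only), against 3.35% of all merged regions. Its share of old-only regions was 1.799% (7 of 389), of regions held by both young and 1 old library 1.65%, and of regions held by all 5 libraries 9.61%. The same interval for old-only regions was 0.874% to 3.67%, which took in the shares of young-only and of all merged regions. These intervals treat the regions as independent within 1 library, so they do not rank the classes, and no difference was tested. Longer regions are touched more easily, and the classes differ in length as given above. Where it did reach a young-only region it covered 3 to 854 bp, with a median of 388.5 bp, and 3 of these 32 lay more than 5 kb from any old peak. The share was 0.710% when the regions were chosen without young replicate 6. When the peaks of young replicate 4 were merged in as well, which redrew the regions, requiring all 3 young libraries left 18.

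The best of the 32 by covered length in young replicate 4 was chr16:84860533-84862519 (mm9), with no peak in any old library. Young replicate 4 covered 854 bp of it, young replicate 5 262 bp and young replicate 6 1987 bp, and the nearest old peak, of replicate 6, was 155 bp away. None of the 10 longest regions and none of the 10 with the highest scores was held by young replicate 4.

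A few young-only regions were long or ranked high, and most of the long ones did not rank high in both young lists. The regions described next are the 10 with the largest mean covered length in young replicates 5 and 6 and the 5 with the highest mean score percentile, and each had 0 bp under peaks in old replicates 4, 5 and 6 and in young replicate 4.

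The strongest was chr9:20709928-20718105, with 4249 bp covered in young replicate 5 and 8178 bp in young replicate 6. It ranked at percentiles 98.8 and 98.7 of the 2 lists and was the only young-only region above the 90th in both. Old cells were not bare around it, since the nearest peaks were 1438 bp away in old replicate 4, 9175 bp in old replicate 5 and 8469 bp in old replicate 6. No H3K4me3 peak or H3K27me3 island of any library lay within 5 kb, and the nearest H3K4me3 region of all 4 libraries was 6178 bp away.

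The longest was chrX:166419199-166429333, with 4042 bp covered in young replicate 5 and 10135 bp in young replicate 6. It ranked at percentiles 94.9 and 69.5 of these lists. In contrast to most young-only regions, it stood far from old peaks, the nearest being 666253 bp away. It was also one of 2 young-only regions where H3K4me3 peaks touched in both young libraries and in neither old library. H3K4me3 covered 0 bp inside it in old replicates 7 and 8, against 2951 bp in young replicate 7 and 2099 bp in young replicate 8. Within 5 kb on either side, H3K4me3 covered 1140 bp in old replicate 7 and 0 bp in old replicate 8, against 3102 and 2566 bp in young replicates 7 and 8, so the old libraries were lower but one of them was not empty.

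Next by length, chr5:147067935-147075269, had 3879 bp in young replicate 5 and 7335 bp in young replicate 6, with the nearest old peak 5261 bp away. Its percentiles were 90.1 in young replicate 5 and 58.7 in young replicate 6. H3K27me3 islands covered 600 bp of it in old replicate 2 and 1000 bp in young replicate 2, and an H3K4me3 peak covered 645 bp in young replicate 7 alone. It thus carried short stretches of the other marks in single libraries of both ages.

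The other long regions were chr13:97958007-97962565, chr17:3074504-3078564, chr5:33078711-33082142, chr15:84517643-84522242, chr8:119155476-119159645, chr2:32595371-32599122 and chr17:27242025-27245354. They were covered over 746 to 2299 bp in young replicate 5 and 3330 to 4559 bp in young replicate 6, and their nearest old peaks were 838 to 14531 bp away. Their percentiles ran from 70.7 to 96.4 in young replicate 5 and from 14.0 to 84.9 in young replicate 6. The region at chr17:3074504-3078564 had H3K4me3 within 5 kb in all 4 libraries, over 1724 and 2115 bp in old replicates 7 and 8 and 2271 and 1854 bp in young replicates 7 and 8. The region at chr13:97958007-97962565 ranked at percentile 86.0 in young replicate 5 and only 14.0 in young replicate 6. Dropping the weaker peaks of each list removed it from young replicate 6 but left 1685 bp in young replicate 5, and the other named regions stayed in both lists. H3K27me3 islands covered 2200 bp of it in old replicate 2 and 400 bp in young replicate 2, and 0 bp in the other H3K27me3 libraries.

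**Figure D3:**
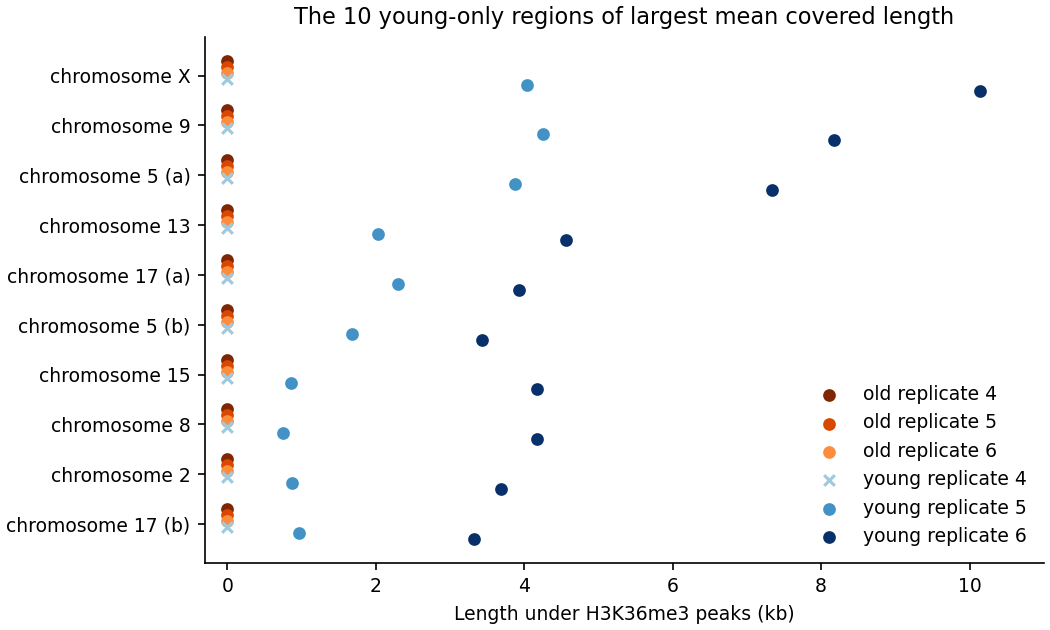
Length under H3K36me3 peaks (horizontal axis, kb) in each of 6 libraries at the 10 young-only regions of largest mean covered length, ordered from the longest at the top; (a) and (b) mark different regions of 1 chromosome. The 3 old libraries and young replicate 4 (cross) are at 0 throughout, young replicate 5 lies between 746 and 4249 bp and young replicate 6 between 3330 and 10135 bp.

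By score the next regions were chr7:19589962-19592020, chr17:30003403-30006016, chr2:32517284-32518810 and chr19:32106486-32108161. They were covered over 574 to 1299 bp in young replicate 5 and 1527 to 2614 bp in young replicate 6. At chr7:19589962-19592020 the promoter mark H3K4me3 lay inside the region at both ages, over 628 and 1607 bp in old replicates 7 and 8 and 845 and 688 bp in young replicates 7 and 8. At chr2:32517284-32518810 the nearest old peaks were 358, 15 and 145 bp away in replicates 4, 5 and 6, so that region bordered H3K36me3 peaks of every old library.

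The H3K4me3 and H3K27me3 lists took no part in choosing the regions. Some of them share title numbers with the H3K36me3 lists that did, and whether they share cells is not stated. H3K4me3 near young-only regions was much the same at both ages. An H3K4me3 peak lay within 5 kb of 396 (18.1%) and 436 (19.9%) of them in old replicates 7 and 8, against 394 and 393 in young replicates 7 and 8. The means were 19.004% ± 1.29 in old and 17.98% ± 0.0323 in young libraries (SD, n = 2 each), a difference of 1.03 percentage points (exact two-sided permutation test, p = 0.33, the smallest that 2 against 2 can give). Between the libraries with title number 18 the shares were 18.09% in old and 17.999% in young. All merged regions had means of 16.4% in old and 15.7% in young, and regions held by all 5 libraries 22.5% and 21.8%, so young-only regions lay between these classes. Old-only regions had lower shares, at 7.58% in old and 7.20% in young libraries.

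Some H3K4me3 library had a peak within 5 kb of 445 young-only regions (20.3%, against 17.5% of all merged regions). All 4 H3K4me3 libraries had a peak within 5 kb of 380 young-only regions (17.4%, against 14.9% of all merged regions). Both old and neither young library had one at 7 (0.320%, against 0.289% of all merged regions), and both young and neither old library at 0 (0.0606% of all merged regions). H3K4me3 touched the region itself in any library at 64 young-only regions (2.92%, against 1.92%) and in all 4 at 31 (1.42%, against 0.871%). Both old and neither young library touched 4 (0.183%, against 0.0864%), and both young and neither old touched 2 (0.0914%, against 0.0348%), namely chrX:166419199-166429333 and chr7:90017492-90018825. The median distance to an H3K4me3 region of all 4 libraries was 21761 bp, against 24221 bp for all merged regions and 34936 bp for old-only regions.

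H3K27me3 islands rarely touched young-only regions at either age. They touched 0.365%, 0.457% and 0.320% of them in old replicates 1, 2 and 3, against 1.51%, 0.457% and 0.457% in young replicates 1, 2 and 3. Young replicate 1 stood apart from the other 5 libraries. The means were 0.381% ± 0.0698 in old and 0.807% ± 0.607 in young libraries (SD, n = 3 each; difference -0.426 percentage points, exact two-sided permutation test, p = 0.3, with 0.1 the smallest possible). Without young replicate 1 they were 0.381% in old and 0.457% in young libraries (exact permutation p = 0.6). Between libraries of the same title number the shares were 0.457% in old and 0.457% in young for number 18, and 0.320% in old and 0.457% in young for number 20. Over all merged regions the means without that library were 0.609% in old and 0.597% in young, both above the values for young-only regions, though this difference was not tested.

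Leaving out young replicate 1, some H3K27me3 island touched 22 young-only regions (1.01%, against 1.63% of all merged regions). None was touched in all 3 old and neither young library (0.0232% of all merged regions), and 1 in both young and no old library (0.0457%, against 0.0477%). In all 5 libraries an island touched 2 (0.0914%, against 0.121%). Within 5 kb, some island lay near 77 regions (3.52%, against 5.16%), islands of all 5 libraries near 18 (0.822%, against 0.773%), of all 3 old and neither young library near 0 (0.0967% of all merged regions) and of both young and no old library near 2 (0.0914%, against 0.16%). At shares this low over all merged regions, counts of 0 to 2 say nothing particular about young-only regions.

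**Figure D4:**
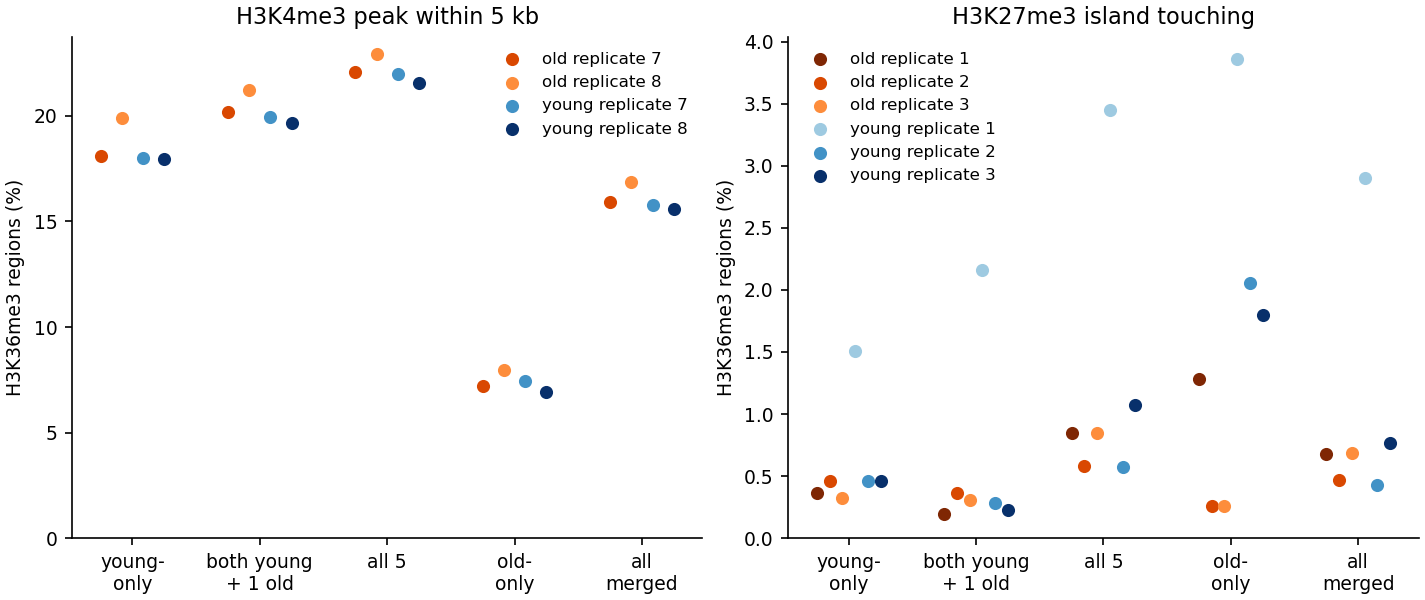
Share of H3K36me3 regions (vertical axes, percent) with an H3K4me3 peak within 5 kb (left) or touched by an H3K27me3 island (right), in each library, for young-only regions, the other classes and all merged regions; each point is 1 library. For young-only regions the H3K4me3 shares average 19.004% in old and 17.98% in young libraries, and young replicate 1 is the high H3K27me3 point at 1.51%.

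The covered length of each H3K4me3 and H3K27me3 region was then compared between the ages across the genome with limma, on the log2(bp covered + 200) scale. Of 538 merged H3K4me3 regions within 5 kb of a young-only region, 463 were covered in at least 2 libraries and tested. None of them, and none of all 17307 tested (0%), passed an adjusted p of 0.05. At an unadjusted p under 0.05, 18 were longer in old (3.89%, against 6.04% of all tested) and 5 shorter in old (1.08%, against 1.2%). The median log2 difference, old minus young, was 0.01 near young-only regions and 0.01 over all tested, so the 2 medians were alike. Leaving out 1 library gave calls, 94 without old replicate 7 (3 near young-only regions), 16 without old replicate 8 (1), 60 without young replicate 7 (4) and 16 without young replicate 8 (0), with the lone library then assumed to vary like the other group.

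Of 217 merged H3K27me3 regions within 5 kb of a young-only region, 55 could be tested. None passed, as none of all 30998 tested did (0%), and at an unadjusted p under 0.05, 1 was longer in old (1.82%, against 3.8%) and 0 shorter (0.613% of all tested). The median log2 difference, old minus young, was 1.70 near young-only regions and 0.48 over all tested, and with each library centred on its median it was 0.54 near young-only regions and -0.68 over all tested, the direction of the whole turning round. Without young replicate 1 the medians were 0.05 and -0.0022, so the difference near young-only regions rested on that library. Without old replicate 2, 2766 regions were called, 2762 of them longer in old, and 1 of the 2766 lay near a young-only region. In simulated data with the real spread, the H3K27me3 comparison found 0 of 100 regions changed by 3 log2 units and the H3K4me3 comparison 75 of 100. H3K27me3 changes of that size could therefore not be seen here. Of 100 regions changed by 1 log2 unit, the H3K27me3 comparison found 0 and the H3K4me3 comparison 17. Most simulated H3K4me3 changes of 1 log2 unit were thus missed as well.

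Young-only regions were spread over all chromosomes. They made up 1.96 to 3.49 per 100 merged regions on the 19 autosomes, and 1076 of the 2021 windows of 1 Mb that held any merged region held at least 1 of them. Of these windows, 513 held 1 region and 291 held 3 or more. Chained by gaps of up to 5 kb, 1981 regions stood singly, 98 chains held 2 and 4 chains held 3. The windows with most were chr13:114000001-115000000 with 14 of its 81 merged regions and chr17:30000001-31000000 with 11 of 142. Next came chr4:151000001-152000000 with 10 of 86, chr8:119000001-120000000 with 10 of 95 and chr11:88000001-89000000 with 9 of 118. Over all merged regions the share was 2.82%.

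In the chromosome 13 window, 12 of the 14 fell in chr13:114678928-114920661, a span of 241.7 kb set after its values were seen. H3K36me3 peaks covered 56.4, 58.4 and 46.0 kb of it in old replicates 4, 5 and 6, against 3.77, 38.4 and 122.9 kb in young replicates 4, 5 and 6. The span held 12 regions of all 5 libraries beside the 12 young-only ones, which lay 155 to 8340 bp from old peaks. It was therefore covered by H3K36me3 at both ages, and young replicate 6 alone covered far more of it than any old library. No H3K4me3 peak of any library lay in it, and the only H3K27me3 there was 2.2 kb in young replicate 3.

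**Figure D5:**
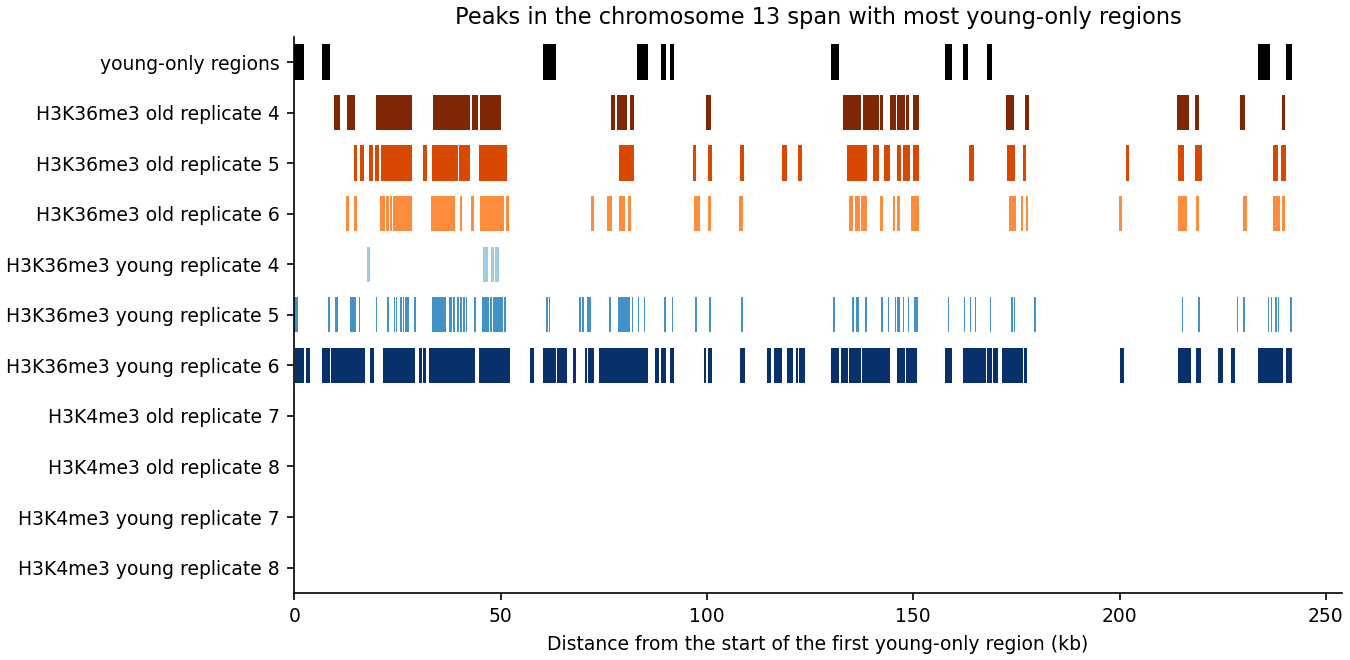
Peaks by library along the 241.7 kb span of chromosome 13 with most young-only regions (horizontal axis, kb from the start of the first young-only region), with the 12 young-only regions as black bars in the top row. Blocks of H3K36me3 peaks stand in the gaps between the black bars in all 3 old libraries, young replicate 6 covers most (122.9 kb), and the 4 H3K4me3 rows are empty.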

How the data were processed

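Per the submitters' processing notes, the authors used CASAVA 1.4, MACS and SICER with the mouse build mm9; which tool made which list, and with what thresholds, controls and alignment settings, is not given in the sources used here. Each library has its own deposited peak list, whose score column holds the authors' score per peak, of unstated definition, used here only to rank or filter peaks within a list. H3K27me3 lists follow a 200 bp grid. Read depth is unknown, so peak number and covered length are read without intervals for depth.

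Peaks were merged and compared in Python 3.11.15 (numpy 2.4.6, pandas 2.3.3, scipy 1.17.1); a library held a region when at least 1 bp overlapped. A region's percentile is that of the best peak touching it, within its list. Shares were compared by exact two-sided permutation over libraries. limma 3.58.1 (R 4.3.3) was fitted to log2(bp covered + 200), with trend and age as the only term, for merged H3K4me3 and H3K27me3 regions that 2 or more libraries covered; p-values were adjusted over all tested (Benjamini-Hochberg). The same fit was tested on simulated data. Named regions are the 10 of largest mean covered length, the 5 of highest mean score percentile, and the 5 windows of 1 Mb with most; the isolated examples and the region best covered in young replicate 4 were chosen after their values were seen. The regions, classes and lists were chosen with earlier results of these data known. Alternatives were other overlaps, merging gaps, score filters, equal peak numbers, left-out libraries, offsets, centring and a replicate block. Young replicate 4 was left out of the choice of regions by the given rule.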

Additional observations from a re-analysis of the deposited data

How the results depend on the processing

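The count of young-only regions, 2189, moved to 1293 with peaks up to 1000 bp apart merged, to 1443 with peaks scoring at least their list's median, to 574 with equal peak numbers, to 18 with young replicate 4 included and to 17589 between the libraries of title number 18 alone; leaving out 1 library gave 2634 to 19416. The 1443 included 267 of the 2189, and the 574 included 236. Old-only counts beside these were 389, then 219 with the 1000 bp merging, 241 with the score filter and 1019 with equal peak numbers. They were 382 with young replicate 4 included and 29557 for title number 18 alone. Old-only regions thus outnumbered young-only ones with equal peak numbers, with young replicate 4 included and for title number 18 alone. The share held by young replicate 4 was 1.01% with at least 200 bp required and 0.710% to 1.60% with 1 library left out (an alternative chosen after seeing the data).

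No limma call was made for H3K4me3 or H3K27me3 with other offsets, all regions, or centring. Leaving out 1 library gave 16 to 94 H3K4me3 calls and 0 to 2766 H3K27me3 calls; the cause was not tested. The deviations of same-numbered H3K27me3 libraries correlated at 0.021 to 0.143, and those of differently numbered ones at -0.147 to 0.049. For H3K4me3 the values were 0.0046 and -0.0046, which with so few libraries can differ only in sign. Whether the labels' replicate numbers pair the libraries was therefore not settled. With the replicate block in limma there were 0 calls for either mark (lowest adjusted p 0.430 for H3K4me3 and 0.360 for H3K27me3). The median length of young-only regions was 1712 bp with the score filter, 1680.5 bp with equal peak numbers, 337 bp without young replicate 6 and 339 bp for title number 18 alone.

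Depth was not measured: a region without a peak is one not called at an unknown depth, not one shown to lack the mark.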

Other observations

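The X chromosome held 52 young-only regions of its 1554 merged regions, 3.35 per 100, within the range of the autosomes. They were 2.38% of all young-only regions, against 0.419% of the regions held by all 5 libraries and 2.00% of all merged regions, and old-only regions numbered 1 there. The share of a library's own regions that lay on the X was 0.678%, 0.769% and 1.27% in old replicates 4, 5 and 6 and 1.12% and 2.02% in young replicates 5 and 6, so both ages spanned a range that overlapped. Young-only regions on the X stood farther from old peaks than young-only regions as a whole, with medians of 5097 bp against 1233 bp. Of the 52, 26 had an old peak within 5 kb. The old lists had 0.513% to 0.943% of their peaks on the X, against 0.797%, 0.604% and 1.57% in young replicates 4, 5 and 6. The distance was not compared with that of other X regions, so it is not shown to be particular to young-only ones. Young replicate 4 held none of the 52.

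Few young-only regions stood apart from all H3K36me3 of old cells. Of the 2189, 51 (2.33%) lay more than 50 kb from any old peak and 17 more than 100 kb. The longest of these was chrX:166419199-166429333, described above. At chr17:29037785-29040688, young replicate 5 covered 820 bp and young replicate 6 2796 bp, with the nearest old peak 55047 bp away. At chr6:41564006-41565653, young replicate 5 covered 948 bp and young replicate 6 1338 bp, with the nearest old peak 651850 bp away. The region chr7:90017492-90018825 had its nearest old peak 88571 bp away and carried all 3 marks in young cells. H3K36me3 covered 920 and 1334 bp of it in young replicates 5 and 6. H3K4me3 covered 0 bp in both old libraries, against 447 and 9 bp in young replicates 7 and 8, although within 5 kb it covered 3801 and 3598 bp in old replicates 7 and 8. H3K27me3 covered 0, 1109 and 0 bp in old replicates 1, 2 and 3, against 0, 1109 and 1334 bp in young replicates 1, 2 and 3. The H3K4me3 there was thus present beside the region at both ages and reached over its edge in the young libraries.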
